A study of Mus musculus with 6 samples.

Results

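The 10 genes described here encode the brakes and accelerators of the G1 phase of the cell cycle: 6 cyclin-dependent kinase (CDK) inhibitors, 3 D cyclins and the tumour suppressor p53. They were taken by symbol from the deposited gene table, which lists 20645 genes. All 10 members were listed, and all 10 were among the 13566 genes that passed the filter on low counts and were tested. RNA was sequenced from lung mesenchymal stromal cells (MSC) of C57BL/6 mice in 6 libraries. Every sample carried the genotype Tbx4-rtTA/TetO-Cre/mT-mG and came from mice given doxycycline from embryonic day 6.5 to postnatal day 1. The drug lets a transactivator driven by Tbx4, a gene of lung mesenchyme, switch on Cre, which turns a red membrane reporter into a green one for good. The 3 mT libraries are cells that stayed red (TdTomato), and the 3 mG libraries are cells that were green (GFP) because they or their ancestors had active Cre. Red cells therefore include any cell in which the driver was active but recombination failed. The labels give neither the age at harvest nor whether animals were pooled. Nothing in them ties a replicate to an animal or culture of its own, so the spread behind each p-value may be technical.

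D cyclins bind the kinases Cdk4 and Cdk6, and the active complexes phosphorylate the retinoblastoma protein, which releases E2F transcription factors and lets a cell enter S phase. INK4 inhibitors bind Cdk4 and Cdk6 directly and keep cyclins off, while CIP/KIP inhibitors act on cyclin-CDK complexes, chiefly those of Cdk2. The Cdkn2a locus also encodes Arf, which restrains Mdm2, the ubiquitin ligase that degrades p53, and p53 in turn activates Cdkn1a. In cultured stromal cells these genes are best known for setting growth arrest and senescence.

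The 6 libraries held 16853561 to 19429138 counts each, and 3 counts, the floor for a gene without counts, corresponded to 0.141 to 0.180 CPM, the counts scaled to library totals after TMM normalization. Of the mesenchymal markers 9 of 9 were listed, and together they made up 12496 to 27695 CPM per library. None of the 9 was called, but Ly6a, Thy1 and Eng were lower in every mG library than in every mT library. Over all genes tested, 20.8% showed no overlap between the groups, in either direction. The other mesenchymal markers overlapped, and Col3a1, Col1a2 and Pdgfrb had fitted log2 fold changes of mG over mT above 0 (0.63, 0.07 and 0.04). Ly6a had means of 520.4 ± 36.9 CPM in mT and 139.7 ± 114 CPM in mG (adjusted p = 0.365), and Thy1 and Eng had adjusted p = 0.294 and 0.435. Within mG, replicate 1 was lowest in Ly6a at 15.3 CPM, and replicate 2 had 23927 Col1a1 counts, against 103026 to 163564 in the other libraries. Endothelial markers, of which 5 of 7 were listed, summed to 0.42 to 17.7 CPM, with the highest sum in mT replicate 1. There Pecam1 and Cdh5 had 139 and 134 counts, against 28 and 11 in mT replicate 3, 3 and 0 in mG replicate 2, and 0 in the other 3 libraries. Kdr, the endothelial marker that was tested, had adjusted p = 0.902. Leukocyte markers, 5 of 7 listed, summed to 9.93 to 16.8 CPM in mT and 2.40 to 6.61 CPM in mG, most of it Lyz2, while Ptprc had 0 to 6 counts. Lyz2 was lower in every mG library than in every mT library (adjusted p = 0.234), and Cd68, at 1.50 CPM or less, was higher (adjusted p = 0.311). Of 7 epithelial markers Scgb1a1 alone was listed, at 0.05 to 0.47 CPM. The leukocyte and endothelial sums reached the level of Cdkn2c and Cdkn2d, the scarcest members, and the part of any of these markers in the results was not tested. In bulk RNA, fewer cells that express a gene and less RNA per cell cannot be told apart.

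The G1 regulators did not move as 1 block between red and green cells, and none of the 10 passed edgeR's quasi-likelihood test after Benjamini-Hochberg adjustment over all genes. In that test 123 genes, 0.907% of those tested, were called. The members shared no direction, and each family with several members had some on either side: the means of Ccnd1, Ccnd2, Cdkn1a, Cdkn2a and Cdkn2b were lower in mG, and those of Ccnd3, Cdkn1b, Cdkn2c, Cdkn2d and Trp53 were higher. Their median log2 fold change of mG over mT was -0.15, against 0.02 over all genes tested. Fitted values were above 0 for 5 of 10 members and for 53.1% of all genes. Before adjustment, 5 members had p under 0.05 (3 higher and 2 lower in mG), where 14.6% of all genes tested did. In 6 members the groups did not overlap in CPM, 3 above and 3 below, where 20.8% of all genes tested showed no overlap. The member nearest to a call was Ccnd1, with adjusted p = 0.134. In the authors' deposited table, whose adjusted p under 0.05 holds for 6.05% of the listed genes, Ccnd1 alone among the members passed, at a log2 fold change of -1.24 and an adjusted p of 0.0466.

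**Figure D1:**
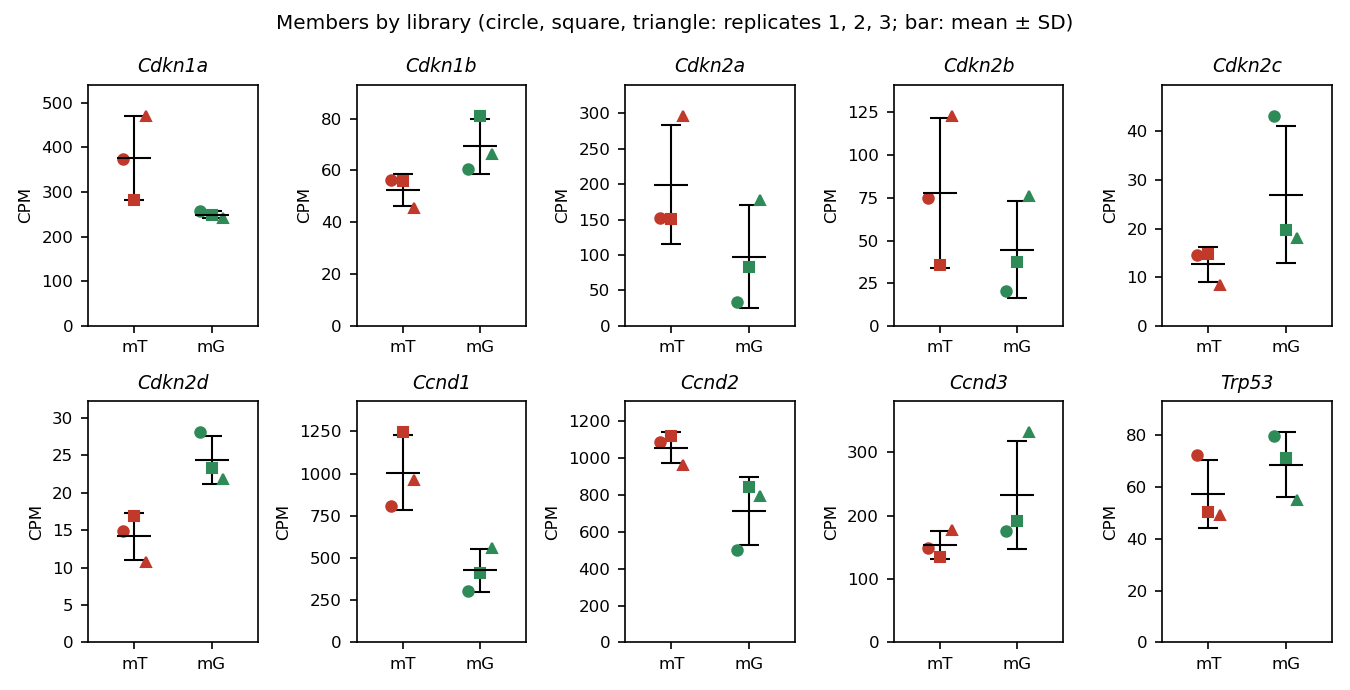
CPM of each member in the 3 mT and 3 mG libraries, 1 panel per gene with its own axis starting at 0; points are libraries and bars the group mean ± SD (n = 3). In Ccnd1 the mG libraries sit between 305 and 561 CPM, all below the lowest mT library at 807 CPM.

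Cyclin D1, the D cyclin that growth factor signalling induces most directly, showed the widest gap among the D cyclins. Ccnd1 (ENSMUSG00000070348), on chromosome 7, had 807, 1244 and 963 CPM in the mT libraries, given here and below in the order of their replicate numbers. In the mG libraries it had 305, 413 and 561 CPM. Every mG library was below every mT library. The means were 1005 ± 221 CPM in mT and 426 ± 129 CPM in mG (SD, n = 3 each), 2.36-fold lower in mG. The log2 fold change was -1.24 ± 0.29 (SE) with a 95% interval from -1.94 to -0.54 and adjusted p = 0.134 in edgeR's quasi-likelihood test. DESeq2 and edgeR's likelihood-ratio test, which called 5.95% and 5.65% of genes, both called Ccnd1, at adjusted p = 0.00262 and 0.00755. Its adjusted p thus lay on either side of 0.05 depending on the tool, with a lowest log2 fold change of -1.48 and a highest of -1.04 over 15 alternatives. On the opposite strand, 1100 exon bases of Ccnd1, 23.4% of its exon bases in GENCODE M21, are shared with the gene LTO1. The libraries were unstranded, so reads from the shared stretch cannot be told apart. LTO1 was listed at 20.3 to 36.2 CPM. How reads in the shared stretch were counted is not given, so that level does not bound their effect on Ccnd1. The other members with such a partner share less, at most 7.68% of their exon bases, and of these partners Bysl, opposite Ccnd3, was the most abundant at 30.1 to 47.3 CPM.

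Cyclin D2, on chromosome 6, had its values lower in mG as well. Ccnd2 (ENSMUSG00000000184) stood at 1088, 1118 and 961 CPM in the mT libraries and at 501, 842 and 794 CPM in the mG libraries. The groups did not overlap, and mG replicate 1 was the lowest of all. Means were 1056 ± 83.5 and 713 ± 185 CPM, with a log2 fold change of -0.57 ± 0.25 whose 95% interval ran from -1.16 to 0.03 (adjusted p = 0.362). Without mG replicate 1 it was -0.37.

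Cyclin D3, on chromosome 17, had the opposite sign. Ccnd3 (ENSMUSG00000034165) had 149.7, 134 and 178 CPM in mT and 175, 192 and 331 CPM in mG, so that the lowest mG library lay just under the highest mT library. Means were 154 ± 22.1 and 233 ± 85.6 CPM, a log2 fold change of 0.60 ± 0.27 with an interval from -0.06 to 1.25 (adjusted p = 0.385). Without mG replicate 3, the highest library, the log2 fold change was 0.25.

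The proportions of the D cyclins to each other can be compared within a library, which does not depend on how libraries are scaled. The ratio of Ccnd1 to Ccnd3 counts was 5.39, 9.26 and 5.41 in the mT libraries and 1.74, 2.15 and 1.69 in the mG libraries. All mG ratios were below all mT ratios. The same was true of Ccnd2 to Ccnd3, at 7.27, 8.33 and 5.40 in mT and 2.86, 4.39 and 2.40 in mG. For Ccnd1 to Ccnd2 the ratios were 0.742, 1.11 and 1.00 in mT and 0.608, 0.491 and 0.706 in mG, again without overlap. These ratios were formed after the levels were known and carry no test, and a ratio shows unequal change without saying which gene changed.

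Levels per length, as RPKM, that is CPM per kilobase, with the gene length that the table lists, put Ccnd1 first among the D cyclins in every library. Its share of the summed D cyclin RPKM was 60.2%, 69.6% and 66.7% in mT and 52.9%, 49.0% and 55.9% in mG. Ccnd3 took 2.69%, 1.81% and 2.97% in mT and 7.34%, 5.48% and 7.95% in mG. The summed RPKM of the 3 D cyclins was 224, 298 and 241 in mT and 96.0, 141 and 167 in mG, lower in every mG library. These shares depend on the length used, because the table lists 24886 bases for Ccnd3 where its longest coding transcript in GENCODE M21 has 2113, an 11.8-fold difference. With the lengths of the longest coding transcripts Ccnd3 took 15.5%, 11.1% and 17.1% in mT and 34.1%, 27.2% and 36.3% in mG. On that scale the 3 D cyclins were near equal in mG, with mean shares of 33.7% for Ccnd1, 33.8% for Ccnd2 and 32.5% for Ccnd3, while in mT Ccnd1 held 52.4% and Ccnd3 14.5%. Counts cover the whole gene, and the 21 transcripts of Ccnd3 in GENCODE M21 span 8775 exon bases. Its share with 2113 bases can therefore be too high, and the near equality in mG rests on that length. Shares per exon bases were not computed.

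**Figure D2:**
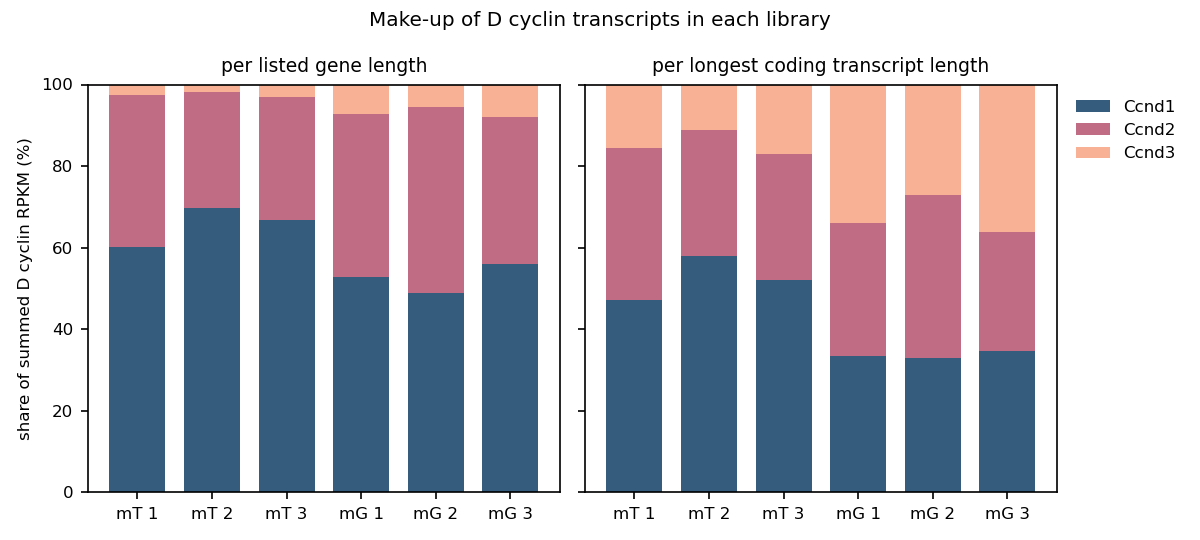
Share of the summed D cyclin RPKM, in percent, held by Ccnd1, Ccnd2 and Ccnd3 in each library, with listed gene lengths and with longest coding transcript lengths. Under both lengths the Ccnd1 share is lower and the Ccnd3 share higher in every mG library than in every mT library.

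Of the CIP/KIP inhibitors, Cdkn1a had a lower mean in mG and Cdkn1b a higher one, and neither passed the test. Cdkn1a (ENSMUSG00000023067), on chromosome 17, encodes p21, the inhibitor through which p53 halts the cycle. It had 375, 283 and 471 CPM in mT and 257, 249 and 242 CPM in mG. The mG libraries lay close together, all under the lowest mT library, whereas the mT libraries were spread widely. Means were 376 ± 93.7 CPM and 249 ± 7.39 CPM, with a log2 fold change of -0.59 ± 0.21, an interval from -1.10 to -0.09 and adjusted p = 0.274. Cdkn1b (ENSMUSG00000003031), on chromosome 6, encodes p27, an inhibitor of Cdk2 complexes that accumulates in resting cells. It had 56.2, 55.9 and 45.4 CPM in mT and 60.7, 81.0 and 66.2 CPM in mG, again without overlap but with mG above. Its means were 52.5 ± 6.16 and 69.3 ± 10.5 CPM (log2 fold change 0.40 ± 0.16, adjusted p = 0.324), and without mG replicate 2 the log2 fold change was 0.26. The ratio of Cdkn1a to Cdkn1b counts was 6.68, 5.06 and 10.4 in mT and 4.23, 3.08 and 3.65 in mG. It too largely restates their opposite signs and carries no test.

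The Cdkn1a gene has 2 promoter windows in RefSeq (GRCm38.p6), each from 250 bases before to 50 bases after a start, and the window at the upstream start is shown because it is the 1 member window with letters of a p53 site. Members with a window numbered 8, with 12 windows in all, and Ccnd1 and Ccnd2 had none in the table. The letters sought were a pair of adjoining 10-base p53 consensus sequences with both cores intact and at most 1 mismatch in the flanks, a pattern that reads the same way on both strands. Such a pair stood in 18 of 32851 windows of this length, or 0.0548%. In the Cdkn1a window at chr17:29090729-29091028 (plus strand, written 5′ to 3′) the pair, in capitals, begins 51 bases before the start and has 1 mismatch.
Cdkn1a upstream start: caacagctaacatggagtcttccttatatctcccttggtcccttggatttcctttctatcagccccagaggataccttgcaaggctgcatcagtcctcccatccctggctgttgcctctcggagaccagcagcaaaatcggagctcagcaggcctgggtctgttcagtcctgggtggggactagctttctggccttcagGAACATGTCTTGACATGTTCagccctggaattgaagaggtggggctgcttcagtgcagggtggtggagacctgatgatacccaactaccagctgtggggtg
A match of letters is a description and not evidence of binding, and a window without them says nothing about p53 elsewhere.

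The INK4 inhibitors had means on either side. Cdkn2a and Cdkn2b, neighbours on chromosome 4, had lower means in mG, and Cdkn2c and Cdkn2d had higher means. Cdkn2a (ENSMUSG00000044303) encodes the INK4 inhibitor p16Ink4a and, from another first exon read in another frame, Arf. It had 152, 150.1 and 296 CPM in mT and 33.1, 83.5 and 177 CPM in mG. The libraries of the groups overlapped, since mG replicate 3 lay above mT replicates 1 and 2. Means were 199 ± 83.9 and 97.8 ± 73.0 CPM, with a log2 fold change of -1.03 ± 0.60, an interval from -2.47 to 0.42 and adjusted p = 0.503. Within same-numbered libraries mG was 0.218, 0.556 and 0.598 times mT for replicates 1, 2 and 3. With the replicate number as a block the log2 fold change of Cdkn2a was -1.25 with adjusted p = 0.186. In that fit 7 members had an unadjusted p under 0.05, where 16.7% of all genes did, and 0 members were called, where 0.796% of all genes were. Leaving out mG replicate 3 moved its log2 fold change to -1.78, while it was -0.61 without mG replicate 1 and -0.62 without mT replicate 3.

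Because the table counts the whole Cdkn2a gene, transcripts for p16Ink4a and Arf cannot be told apart in these values. The pair of start sites is shown to make that limit plain, as the windows lie far apart and share no start. The RefSeq windows (GRCm38.p6, minus strand, 5′ to 3′) are chr4:89294570-89294869 at the upstream start, on the Arf side, and chr4:89282143-89282442 at the downstream start. E2F letters (TTTCCCGC, TTTCGCGC, TTTGCCGC or TTTGGCGC, on either strand) were sought in all windows and are in capitals. They occur in 2.26% of 32851 windows and, among the members, in the upstream window of Cdkn2a alone, beginning 99 bases before the start.
Cdkn2a upstream start: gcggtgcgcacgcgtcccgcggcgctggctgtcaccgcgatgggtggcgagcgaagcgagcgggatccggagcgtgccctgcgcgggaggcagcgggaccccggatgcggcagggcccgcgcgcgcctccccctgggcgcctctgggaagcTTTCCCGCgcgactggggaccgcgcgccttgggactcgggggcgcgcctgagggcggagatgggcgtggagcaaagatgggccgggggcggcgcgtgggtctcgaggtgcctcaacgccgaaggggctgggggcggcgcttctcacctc
Cdkn2a downstream start: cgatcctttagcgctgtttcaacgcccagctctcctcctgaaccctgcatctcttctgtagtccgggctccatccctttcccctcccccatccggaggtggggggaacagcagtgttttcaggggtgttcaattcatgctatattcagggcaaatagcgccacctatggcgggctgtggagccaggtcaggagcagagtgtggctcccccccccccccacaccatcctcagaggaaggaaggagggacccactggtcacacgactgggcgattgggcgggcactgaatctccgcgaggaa

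Cdkn2b (ENSMUSG00000073802) encodes p15, an INK4 inhibitor known as a target of TGF-beta signalling in epithelial cells. Its values were 74.8, 35.6 and 123 CPM in mT and 20.6, 37.1 and 76.0 CPM in mG. As for Cdkn2a, replicate 3 was the highest library of each group, and the groups overlapped. Means were 77.8 ± 43.8 and 44.6 ± 28.5 CPM, with a log2 fold change of -0.80 ± 0.59 and an interval from -2.21 to 0.61 (adjusted p = 0.621). It moved to -1.43 without mG replicate 3, to -0.46 without mG replicate 1 and to -0.31 without mT replicate 3.

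Cdkn2c (ENSMUSG00000028551), also on chromosome 4, encodes p18, an INK4 inhibitor that is itself an E2F target. It had 14.7, 14.8 and 8.45 CPM in mT and 43.2, 19.7 and 18.1 CPM in mG, with every mG library above every mT library. Means were 12.7 ± 3.65 and 27.0 ± 14.1 CPM, with a log2 fold change of 1.09 ± 0.41, an interval from 0.11 to 2.07 and adjusted p = 0.297. Without mG replicate 1, the highest library, its log2 fold change was 0.58. Cdkn2d (ENSMUSG00000096472), on chromosome 9, encodes p19Ink4d, whose transcript is known to vary through the cell cycle. It had 14.8, 16.9 and 10.8 CPM in mT and 28.0, 23.3 and 21.8 CPM in mG, also without overlap. Means were 14.2 ± 3.10 and 24.4 ± 3.25 CPM, with a log2 fold change of 0.78 ± 0.22, an interval from 0.26 to 1.30 and adjusted p = 0.181. The ratio of Cdkn2a to Cdkn2c counts was 10.3, 10.1 and 35.0 in mT and 0.766, 4.24 and 9.78 in mG, without overlap. Cdkn2a and Cdkn2c had opposite signs, so this ratio largely restates their directions, and it carries no test. The ratios of Cdkn2a to Cdkn2b, of Cdkn2c to Cdkn2d and of Cdkn2a to Cdkn1a overlapped between the groups.

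**Figure D3:**
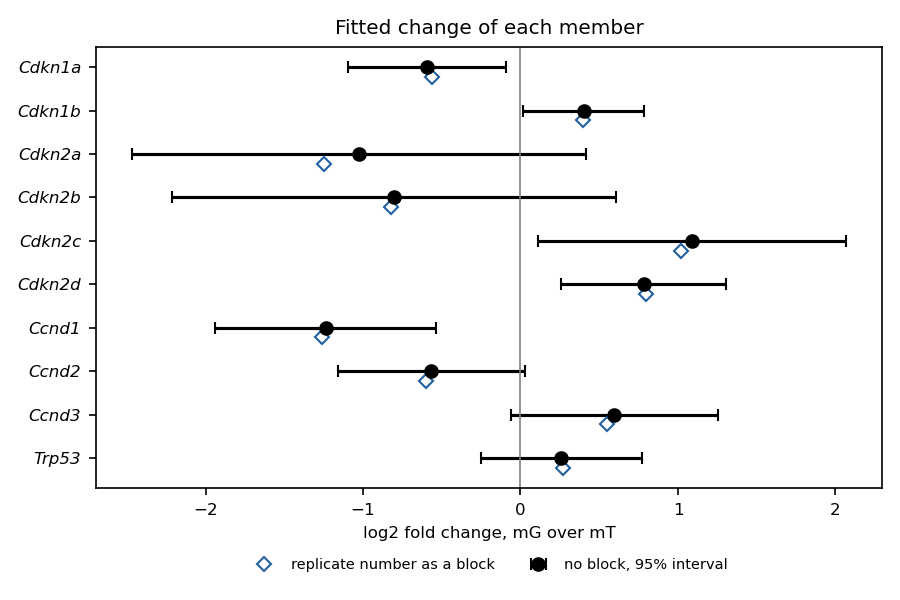
Log2 fold change of mG over mT for the 10 members, ordered by role, with filled points and bars for edgeR's quasi-likelihood fit and its 95% interval, and diamonds for the fit with the replicate number as a block. The interval excludes 0 for Ccnd1, Cdkn1a, Cdkn1b, Cdkn2c and Cdkn2d, and no member passes after adjustment over all genes.

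The INK4 genes also varied between libraries of the same group, side by side with genes of proliferation. Over 17 proliferation genes, the mean log2(CPM + 0.5) was 4.72, 4.46 and 3.48 in the mT libraries and 6.36, 5.16 and 4.50 in the mG libraries. The groups overlapped, while mG was above mT in each of the 3 same-numbered pairs. All 17 had fitted values above 0, with a median log2 fold change of 1.32, and 0 were called. Before adjustment 4 of 17 had p under 0.05 (14.6% of all genes tested did), and with the replicate number as a block 15 of 17 did (16.7% of all genes), still with 0 called and a smallest adjusted p of 0.0709. The smallest adjusted p-values without the block were 0.318 for the replication helicase gene Mcm3, 0.319 for the spindle checkpoint gene Bub1b and 0.326 for the mitotic kinase gene Aurka. Mki67, a marker of cycling cells, had 69.0, 51.9 and 16.2 CPM in mT and 245, 83.9 and 58.5 CPM in mG (log2 fold change 1.50, adjusted p = 0.391). Cdkn2a and Cdkn2b were lowest in mG replicate 1, where the proliferation genes were highest, and highest in mT replicate 3, where the proliferation genes were lowest. Cdkn2c and Cdkn2d had the reverse order at those ends, highest in mG replicate 1 and lowest in mT replicate 3. That order was not particular to INK4 genes, since Trp53 had it too, at 79.5 and 49.1 CPM. The part of proliferation in the INK4 values was not tested.

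**Figure D4:**
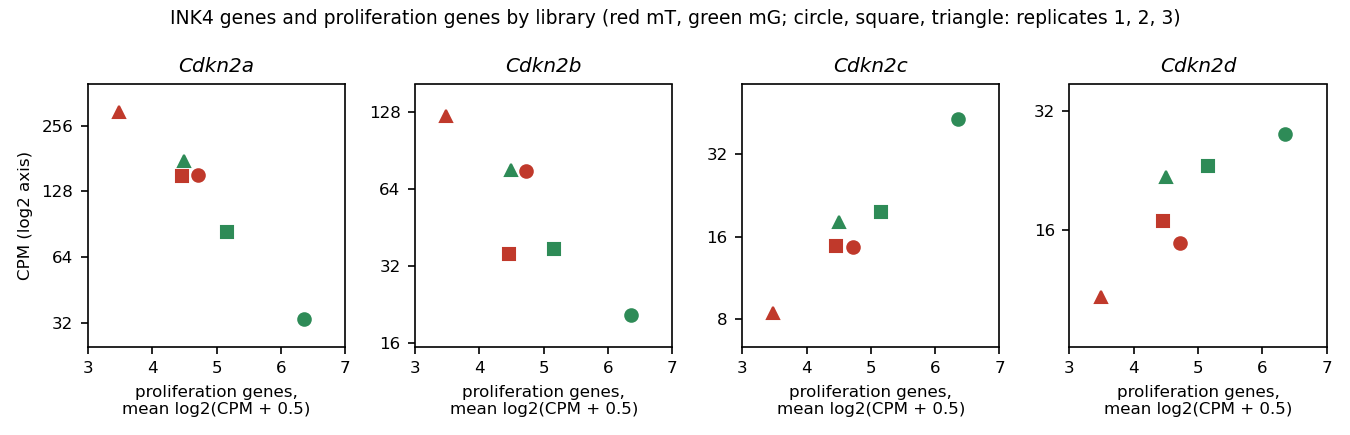
CPM of the 4 INK4 genes, on a log2 axis, against the mean log2(CPM + 0.5) of 17 proliferation genes, 1 point per library, red for mT and green for mG. Library mG replicate 1 has the highest proliferation value (6.36) and the lowest Cdkn2a, and library mT replicate 3 the lowest proliferation value (3.48) and the highest Cdkn2a.

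Trp53 (ENSMUSG00000059552), on chromosome 11, encodes p53, which is controlled mostly through protein stability, so its transcript is not a measure of its activity. It had 72.4, 50.2 and 49.1 CPM in mT and 79.5, 71.1 and 55.0 CPM in mG, with overlap between the groups. Means were 57.2 ± 13.1 and 68.5 ± 12.4 CPM, with a log2 fold change of 0.26 ± 0.21 and an interval from -0.25 to 0.77 (adjusted p = 0.672). Single libraries moved this value. Omitting mT replicate 1 gave 0.46, mT replicate 2 gave 0.17 and mT replicate 3 gave 0.16, while omitting mG replicate 1 gave 0.14 and mG replicate 3 gave 0.40. The ratio of Cdkn1a to Trp53 counts was 5.18, 5.64 and 9.58 in mT and 3.23, 3.51 and 4.39 in mG, without overlap. Cdkn1a and Trp53 had opposite signs, so this ratio largely restates their directions. It carries no test and is not a measure of p53 activity. Mdm2, at once a p53 target and its main inhibitor, had means of 153 ± 20.1 and 130.0 ± 23.6 CPM (log2 fold change -0.24, adjusted p = 0.647).

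Of 29 p53 target genes tested, Mdm2 among them, 0 were called, 13 had fitted values above 0, and their median log2 fold change was -0.02. At an unadjusted p under 0.05, 2 were higher and 1 was lower in mG, 10.3% of the list against 14.6% of all genes tested. Perp, a p53 target that encodes a desmosome protein, had 2.43, 1.08 and 3.96 CPM in mT and 11.1, 14.9 and 9.49 CPM in mG (log2 fold change 2.25, adjusted p = 0.116). Gdf15, a secreted TGF-beta family member, had means of 10.1 ± 3.56 and 4.37 ± 0.80 CPM (log2 fold change -1.21, adjusted p = 0.193). Pmaip1, which encodes the cell death protein Noxa, had 4.25, 4.61 and 4.55 CPM in mT and 7.09, 36.6 and 5.42 CPM in mG (adjusted p = 0.322). Its groups did not overlap, but the size of the difference in means came mostly from mG replicate 2. Cdkn1a and the p53 targets thus gave no single direction. Of 14 genes named as relatives or regulators of p53, 12 were tested and 0 were called, with a median of -0.03. The smallest adjusted p-values there were 0.365 for Hipk2, a kinase that phosphorylates p53, 0.551 for the checkpoint kinase gene Chek1 and 0.581 for Atr, which signals replication stress.

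None of the partners and effectors of the D cyclins passed edgeR's quasi-likelihood test. Cdk4 had means of 168 ± 17.2 and 199.8 ± 19.0 CPM (log2 fold change 0.25, adjusted p = 0.496), and Cdk6 had 40.2 ± 13.1 and 37.3 ± 14.7 CPM (-0.11, adjusted p = 0.946). Neither kinase separated the groups. Of the further CDK inhibitors, Cdkn3, a phosphatase that acts on CDKs and peaks in cycling cells, had 3.17 ± 1.59 and 11.9 ± 10.1 CPM (adjusted p = 0.294), and Cdkn1c, which encodes p57, had adjusted p = 0.856. Of 13 pocket protein and E2F genes, 12 had fitted values above 0, with a median of 0.22, and 0 were called. E2f1, an activating E2F, had 32.5, 35.0 and 33.4 CPM in mT and 58.1, 45.8 and 49.8 CPM in mG, without overlap (log2 fold change 0.61 ± 0.13, adjusted p = 0.114). Its repressive relative E2f8 had adjusted p = 0.489, and Rb1, the retinoblastoma gene, had 26.6 ± 1.25 and 32.6 ± 8.25 CPM (adjusted p = 0.584). Of 8 later CDKs and cyclins 7 were tested, all with fitted values above 0 and a median of 1.28, and 0 were called. Ccne1, the cyclin that partners Cdk2 at S phase entry, had 13.2 ± 0.62 and 22.4 ± 8.98 CPM (adjusted p = 0.308), Ccnb2 had adjusted p = 0.324 and the mitotic kinase gene Cdk1 had 0.365.

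Regulators of the Ink4/Arf locus, chiefly Polycomb proteins and T-box factors, had 16 genes tested, 6 with fitted values above 0, a median of -0.03 and 0 called. The Polycomb subunit gene Eed had 34.3 ± 2.21 and 43.4 ± 1.67 CPM, without overlap (adjusted p = 0.255). Ezh2, the Polycomb methyltransferase, had 11.8 ± 5.74 and 25.9 ± 12.9 CPM (adjusted p = 0.363), and Tbx2, a repressor of Arf, had 12.1 ± 7.33 and 33.3 ± 21.7 CPM (adjusted p = 0.379). Of 14 senescence-associated genes 8 had fitted values above 0, with a median of 0.36 and 0 called, while 4 were higher and 1 lower at an unadjusted p under 0.05, 35.7% of the list against 14.6% of all genes tested. Igfbp5, a growth factor binding protein, had 4.58 ± 1.58 and 13.8 ± 4.14 CPM (adjusted p = 0.121), and Hmgb2, a chromatin protein that is lost in senescent cells, had 17.3 ± 5.88 and 44.3 ± 23.0 CPM (adjusted p = 0.238). With Gdf15, these were the smallest adjusted p-values of that list. The list pools genes that senescent cells lose, such as Hmgb2, with genes that they raise, and Hmgb2 was among the 4 higher. Its counts and median therefore give no direction for senescence.

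**Figure D5:**
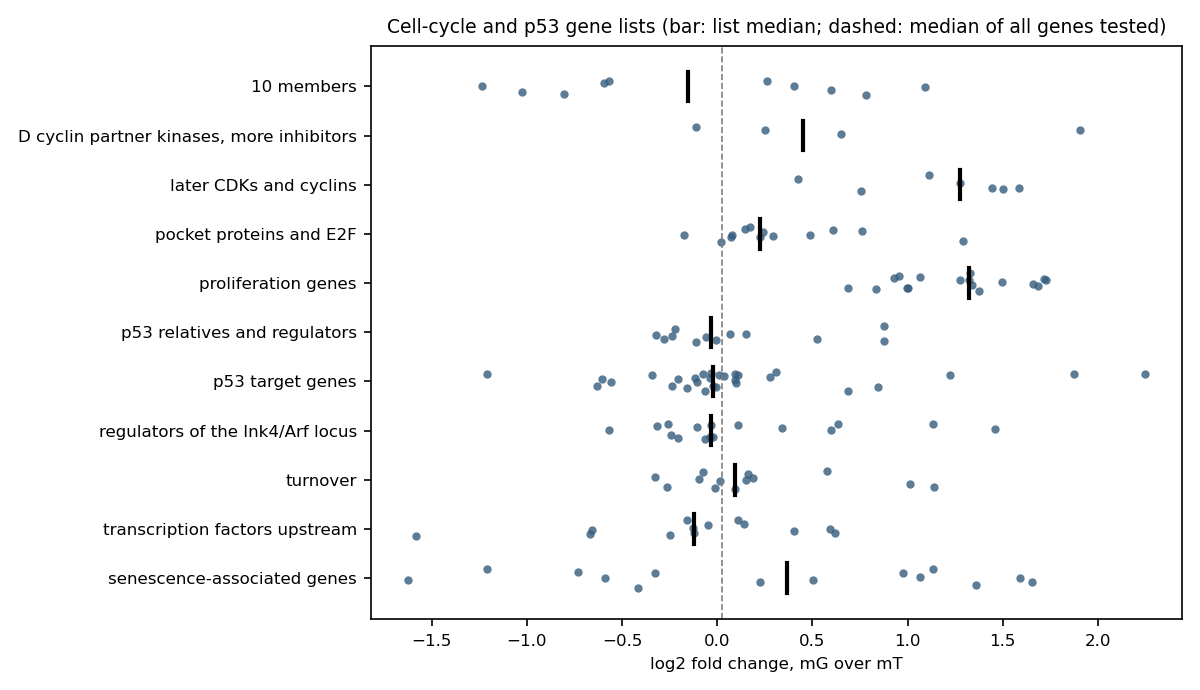
Log2 fold change of mG over mT for the tested genes of each list around the members, 1 point per gene with a bar at the list median; the dashed line is the median of all genes tested (0.02). Proliferation genes (median 1.32) and later CDKs and cyclins (median 1.28) have no gene with a fitted value below 0.

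In level per length, with the listed lengths, the members fell into an abundant and a scarce set. In mT Ccnd1 led at 168 ± 36.9 RPKM, followed by Cdkn2a at 114 ± 47.8, Ccnd2 at 80.4 ± 6.36, Cdkn2b at 55.9 ± 31.4 and Cdkn1a at 53.3 ± 13.3 RPKM. Far below were Ccnd3 at 6.19 ± 0.89, Cdkn1b at 6.02 ± 0.71, Trp53 at 5.22 ± 1.20, Cdkn2d at 4.18 ± 0.92 and Cdkn2c at 3.53 ± 1.02 RPKM. Within each set the libraries of neighbours in this order overlapped, apart from Cdkn2a and Ccnd2, where the lowest Cdkn2a library (85.6) lay just over the highest Ccnd2 library (85.2). The gap between Cdkn1a and Ccnd3 was wide. The order in mG was Ccnd1 at 71.1 ± 21.5, Cdkn2a at 55.8 ± 41.6, Ccnd2 at 54.3 ± 14.1, Cdkn1a at 35.3 ± 1.05 and Cdkn2b at 32.0 ± 20.5 RPKM, with the other 5 members between 6.25 and 9.36 RPKM. Neighbours among the first 5 overlapped there too, other than Ccnd2 and Cdkn1a. Among all listed genes the members ranked from the percentile 80.8 (Cdkn2c) to 99.1 (Ccnd1). The place of Ccnd3 and Trp53 rests on long listed lengths: with the longest coding transcripts the mT means were 72.9 RPKM for Ccnd3 and 30.7 RPKM for Trp53. On that scale the sets did not stay apart. The mean of Ccnd3 lay above that of Cdkn2b (55.9 RPKM) in mT, and in mG Trp53 at 36.7 RPKM lay above Cdkn2b at 32.1 RPKM. Means of Cdkn1a, Ccnd1, Ccnd2, Ccnd3 and Cdkn2a with the longest coding transcripts lay between 109 and 120 RPKM in mG. The exon bases of all transcripts in GENCODE M21 lie between these lengths, at 8775 for Ccnd3 and 4045 for Trp53. Since counts cover the whole gene, the length of 1 transcript can overstate both levels. Levels per exon bases were not computed, so whether the sets stay apart depends on the length chosen.

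Among 12220 named genes that were no predicted models, those with the profile over 6 libraries nearest to a member were found by the root mean square difference of centred log2 CPM. For Cdkn1a these were Rnf149 (0.0578), Ubtd1 (0.0923) and St6galnac4 (0.105). Rnf149 had 55.0, 38.9 and 61.1 CPM in mT and 35.3, 35.1 and 34.9 CPM in mG. For Cdkn2a they were Ppef1 (0.284), H1f3 (0.325) and Gadd45a (0.365), differences several times larger than those for Cdkn1a. Ppef1, the nearest of these, had 5.93, 4.55 and 9.95 CPM in mT and 0.818, 1.50 and 4.42 CPM in mG. The farthest of them, Gadd45a, a growth arrest and DNA damage gene, had 13.4, 9.76 and 19.5 CPM in mT and 3.49, 7.12 and 9.25 CPM in mG. For Trp53 they were Gtf2f2 (0.0781), Mpp7 (0.0965) and Rbpms (0.103). With so few libraries many genes lie near any profile, and nearness is a description.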

How the data were processed

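RNA was sequenced from 3 mT and 3 mG samples. Per the labels' protocols, lung cells were dissociated with enzymes and sorted by reporter colour, and libraries were unstranded. Tools listed in the submitters' processing notes are STAR, edgeR 4.0, Trimmomatic 0.38, cutadapt 5.0 and FastQC 0.11.9. For the build, annotation and counter the sources used here give no name.

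The authors deposited 1 gene table with whole-number counts per library, per the file headers. Its RPKM columns, per the file headers the authors' values, equal counts over listed length and a constant per library. The columns named TMM hold a deposited signal of scaled counts. The authors' log2 fold changes and log2 levels, likelihood-ratio score, p-value and adjusted p-value, and −log10 p-value were deposited beside them. They were used only where the authors' table is named.

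Counts went into the quasi-likelihood test of edgeR 4.0.16 (R 4.3.3) with TMM factors of 0.926 to 1.134. Genes were kept by filterByExpr at a minimum count of 10, and p-values of the 13566 kept were adjusted by Benjamini-Hochberg, with a threshold of 0.05. CPM are counts over TMM-scaled totals, and RPKM are CPM over the length in kilobases that the authors deposited. The standard error is the log2 fold change over the square root of F. Rows without a gene name held 0.013% to 0.0352% of counts. Floors cover counting error only. Library correlations of log2 CPM across genes were 0.903 to 0.976 within and 0.881 to 0.934 between groups.

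Alternatives were RLE and upper-quartile scaling, no filter, CPM of at least 1 in 3 libraries, DESeq2 1.42.0, limma-voom (limma 3.58.1), the replicate number as a block, 1 factor of unwanted variation, and each library left out. The likelihood-ratio test and transcript lengths of GENCODE M21 were added after seeing the data. Deviations from group means correlated at 0.24, 0.183 and 0.299 between same-numbered libraries, each over 0.1. A reading of the numbers as pairing comes from the data and not from the labels. It entered only the alternative with the block. The main test used the group alone, and values are from that unpaired fit unless another fit is named. The block changed no member's call. Members and lists were chosen with earlier results of these data known. Named genes are all members, the 3 tested genes of each list with the smallest adjusted p, Cdk4, Cdk6, Mdm2, Rb1 and Mki67, and the 3 nearest profiles of Cdkn1a, Cdkn2a and Trp53. Col1a1, Col1a2, Col3a1, Pdgfrb, Pecam1, Cdh5, Ptprc, Scgb1a1, Polk, Tbx3 and the antisense partners were named after their values were seen.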

Additional observations from a re-analysis of the deposited data

How the results depend on the processing

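Direction held for the 10 members under all 15 alternatives (150 of 150 values), while calls depended on the test. Against 123 genes called in edgeR's quasi-likelihood test, DESeq2 called 960, edgeR's likelihood-ratio test 766, and 1 factor of unwanted variation 483. Leaving out single libraries gave 20 (without mT replicate 3) to 362 (without mG replicate 2), through 28 (without mT replicate 1), 25 (mT replicate 2), 71 (mG replicate 1) and 32 (mG replicate 3). Members called numbered 0, and 1 under DESeq2 and under the likelihood-ratio test, in both cases Ccnd1 at a log2 fold change of -1.24. Genes of the lists called numbered 0, but 4 under DESeq2 (Perp, Igfbp5, Gdf15, E2f1), 2 under the likelihood-ratio test (Perp, Igfbp5), 1 under the factor of unwanted variation (E2f1), and 0 to 2 with single libraries left out, the 2 being Polk and Tbx3 without mG replicate 2; the cause was not tested. With the replicate block 108 genes passed (0.796% of those tested), and 0 members. The replicate block changed no other call among the members and lists.

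With the longest coding transcript as length, the mT means were 52.4% for the Ccnd1 share, 14.5% for Ccnd3 and 508 for the summed D cyclin RPKM, against 65.5%, 2.49% and 254 with listed lengths. In mG they were 33.7% for Ccnd1, 33.8% for Ccnd2, 32.5% for Ccnd3 and 337 for the sum, against 52.6%, 40.5%, 6.92% and 135; the construction of the alternative, a shorter length, moves these values. With 3 libraries a group the 95% intervals are wide (for Cdkn2a from -2.47 to 0.42), so a missed threshold does not show that levels were alike. Antisense partners, and p16Ink4a against Arf, cannot be told apart in unstranded gene counts.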

Other observations

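Genes that set the turnover or the transcription of the members gave values on both sides of 0. Of 13 tested genes that control turnover of CDK inhibitors and D cyclins, 8 had fitted values above 0, with a median log2 fold change of 0.09 and 0 called. Cks1b, the cofactor with which Skp2 targets p27 for degradation, had 32.9, 24.3 and 19.9 CPM in mT and 80.7, 29.1 and 45.8 CPM in mG (adjusted p = 0.311). Dtl, the substrate receptor for p21 in S phase, had means of 5.57 ± 2.72 and 12.3 ± 7.37 CPM (adjusted p = 0.447), and Skp2 itself had 8.11 ± 1.61 and 12.1 ± 4.25 CPM (adjusted p = 0.466). Of 13 transcription factors upstream of the members, 5 had fitted values above 0, with a median of -0.12 and 0 called. Foxo3, which activates Cdkn1b, had 55.8, 57.9 and 60.7 CPM in mT and 54.1, 109 and 104 CPM in mG (adjusted p = 0.36), with mG replicate 1 at the level of the mT libraries. Its relative Foxo1 had means of 24.3 ± 3.73 and 15.4 ± 6.03 CPM (adjusted p = 0.419), and Mycn had 0.913 ± 0.272 and 0.30 ± 0.313 CPM (adjusted p = 0.42).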
